A study of Mus musculus with 127 samples.

Results

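The 10 autophagy and mitochondrial clearance genes described here, Bnip3l, Ulk1, Gabarap, Gabarapl1, Gabarapl2, Map1lc3a, Map1lc3b, Sqstm1, Atg7 and Atg5, were found by symbol among the 24320 gene symbols of a table of transcript levels in 127 single cells of mouse bone marrow, and each is represented by its transcript row with the highest mean. The cells were 48 Flvcr-deleted cells, 31 cells from wild-type mice given erythropoietin (EPO), the kidney hormone that stimulates formation of red cells, and 48 wild-type cells, all from C57BL/6J mice and all labelled as erythroblasts. Flvcr is a cell surface transporter known for exporting heme. The allele and Cre line behind the deletion, the dose and duration of EPO, and the age and number of mice were not stated in the labels. With no mouse named for the cells, every group was treated as 1 sample: no p-value was computed, no difference between groups has a replicate check, and every standard deviation (SD) below is over cells. Each group was captured on microfluidic chips of its own, and the chip cannot be told apart from the group.

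A red cell precursor ends its maturation by discarding its organelles, and its mitochondria are engulfed by autophagosomes and degraded in lysosomes. The kinase Ulk1 starts autophagy. Atg5 and Atg7 belong to the conjugation machinery that attaches ubiquitin-like proteins of the LC3 and GABARAP family, here Map1lc3a, Map1lc3b, Gabarap, Gabarapl1 and Gabarapl2, to the lipid of the growing membrane. Receptors then tie the cargo to these proteins: Bnip3l, also called Nix, sits on the outer mitochondrial membrane and is needed for mitochondrial clearance in mouse reticulocytes, and Sqstm1, also called p62, carries ubiquitinated cargo.

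The labels gave cells a class from A to D, broadly in rising order of Ter119 fluorescence within a chip, Ter119 being a marker of red cell maturation. Flvcr-deleted cells numbered 18, 16, 9 and 5 in classes A to D, EPO-treated cells 7, 11, 9 and 4, and wild-type cells 6, 10, 19 and 13. Levels are reads per kilobase of transcript scaled to sequencing depth (RPKM), which allows for transcript length, and detection means 1 RPKM or more. Of 12 erythroid markers, a median of 10 were detected in Flvcr-deleted, 10 in EPO-treated and 12 in wild-type cells of classes B to D. Class A was unlike them: the median was 4.5, 4 and 3.5 erythroid markers, Alas2, the first enzyme of heme synthesis in red cells, was at 0 in all 6 wild-type class A cells, and 4 of those 6 cells had at least 3 granulocyte and monocyte markers. The differences between groups therefore use classes B to D. In these classes at most 2 of 12 granulocyte and monocyte markers, at most 1 of 5 platelet markers and none of the 8 macrophage markers were detected in any cell. The groups also differed in the number of genes detected per cell, with medians of 1196.5 in Flvcr-deleted (range 645 to 3452), 1385 in EPO-treated (638 to 3982) and 2199 in wild-type cells (1151 to 3871) of classes B to D. Globin genes took a median of 90.7%, 64.9% and 69.6% of the summed RPKM of these cells, in the same order of groups.

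The 10 genes fell into 4 abundant and 6 rare ones. Map1lc3b ranked 164 among all symbols by mean level and was detected in 103 of 127 cells, Gabarap ranked 308 and was detected in 99, Gabarapl2 ranked 340 and was detected in 86, and Bnip3l ranked 747 and was detected in 75. These 4 genes were among the 2540 with a mean log2(RPKM + 1) of at least 1 over all cells, the filter for all counts below. The other 6 did not pass it: Gabarapl1 and Atg5 were detected in 22 cells each, Sqstm1 in 21, Atg7 in 14, Ulk1 in 6 and Map1lc3a in 4. The transcripts of 3 LC3 and GABARAP family genes and of the mitochondrial receptor were thus found in most cells, while those of the initiating kinase, the conjugation enzymes and the cargo receptor Sqstm1 were found in few.

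**Figure D1:**
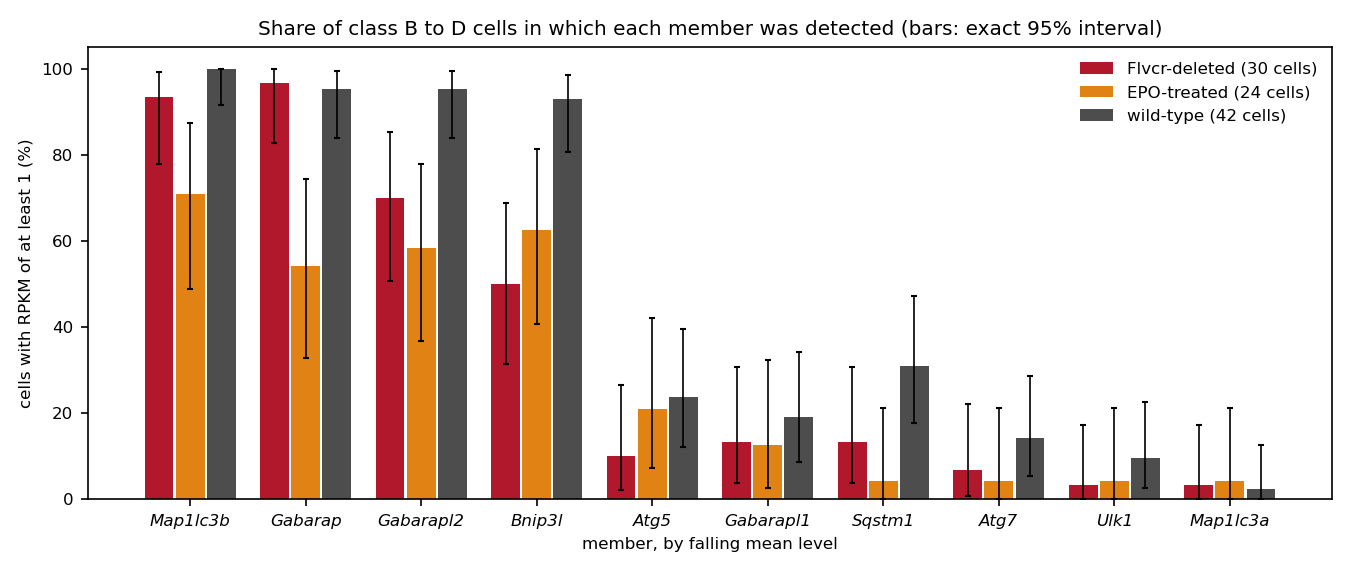
Share of class B to D cells with at least 1 RPKM of each gene (y axis, percent), for Flvcr-deleted (30 cells), EPO-treated (24) and wild-type cells (42), with exact (Clopper-Pearson) 95% intervals that cover counting error over cells only; genes run from the highest to the lowest mean level. Gabarap stood at 96.7% in Flvcr-deleted, 54.2% in EPO-treated and 95.2% in wild-type cells, whereas Bnip3l stood at 50%, 62.5% and 92.9%.

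The 3 abundant family genes differed from each other in how they varied between groups, so the 250 bases before their annotated transcription starts are shown, written in the direction of transcription, from RefSeq on GRCm38.p6. The windows are chr8:121590188-121590437, plus strand, for Map1lc3b, chr11:69991120-69991369, plus strand, for Gabarap, and chr8:111940453-111940702, plus strand, for Gabarapl2. Capitals mark a match on either strand to CCNCACCC with any base but T at the N, letters known to be bound by the erythroid factor KLF1.
Map1lc3b: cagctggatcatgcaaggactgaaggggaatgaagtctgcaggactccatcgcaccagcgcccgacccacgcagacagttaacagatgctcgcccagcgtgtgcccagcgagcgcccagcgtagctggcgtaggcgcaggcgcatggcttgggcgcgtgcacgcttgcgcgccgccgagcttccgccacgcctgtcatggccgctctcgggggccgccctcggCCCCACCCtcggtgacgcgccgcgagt
Gabarap: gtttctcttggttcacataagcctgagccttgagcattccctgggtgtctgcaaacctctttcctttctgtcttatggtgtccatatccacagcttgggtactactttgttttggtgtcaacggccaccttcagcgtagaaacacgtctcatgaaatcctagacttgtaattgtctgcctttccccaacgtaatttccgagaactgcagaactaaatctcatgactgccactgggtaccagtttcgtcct
Gabarapl2: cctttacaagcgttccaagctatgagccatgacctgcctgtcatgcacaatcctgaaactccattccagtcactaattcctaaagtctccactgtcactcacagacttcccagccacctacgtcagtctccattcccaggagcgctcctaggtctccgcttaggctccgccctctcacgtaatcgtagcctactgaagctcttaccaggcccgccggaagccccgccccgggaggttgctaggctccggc
The Map1lc3b window was rich in G and C (69.6%) and held 30 CpG dinucleotides. The Gabarap window was at 46.4% with 6 CpG dinucleotides, and the Gabarapl2 window at 57.2% with 12. The median over all 32851 RefSeq promoter windows of that length was 52.4%.

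Windows were on hand for 8 of the 10 genes, without Bnip3l and Map1lc3a. The KLF1 letters were in 2 of the 8, those of Map1lc3b, 27 bases before the start, and of Gabarapl1, 36 bases before it, and in 13.1% of all windows. The E-box CACGTG, read on both strands and bound by factors such as TFEB, was in the windows of Atg7 and Atg5, 132 and 14 bases before the start, and in 6.02% of all windows. The letters GATA with A or T before them and A or G after them, read on both strands and known from GATA factors, were in 0 of the 8 and in 26.5% of all windows, and the FOXO letters GTAAACA, also on both strands, were in 0 of the 8 and in 3.17% of all. A match describes the letters and not a bound site.

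The first comparison asked how the absence of the heme exporter Flvcr goes with these transcripts in cells of the same class letter. Cells of a letter were not alike in globin share, with class B medians of 79.9% in Flvcr-deleted and 45.8% in wild-type cells. Bnip3l and Gabarapl2 were lower in Flvcr-deleted cells of every class from B to D, Gabarap was as high as in wild-type cells, and Map1lc3b was lower in classes B and D and higher in class C. The difference given for each gene is that of mean log2(RPKM + 1) within a class letter, averaged over letters B, C and D with equal weight, and it was called where its size was at least 1 and its sign the same in all 3 letters. By that rule 2 of the 4 genes past the filter were lower and 0 higher, while 48.3% of all genes past it were called lower and 3.74% higher. The median difference of the 4 genes was -1.35 and that of all genes past the filter -1.08, so calls of lower genes carry a shift that most genes shared.

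Bnip3l, the mitochondrial receptor, had a lowest, median and highest value of 0, 2.01 and 277 RPKM in Flvcr-deleted class B cells, against 3.69, 40.4 and 100 RPKM in wild-type class B cells. In class C these values were 0, 2.29 and 61.9 RPKM in Flvcr-deleted cells, against 0, 32.2 and 138 RPKM in wild-type cells. The 5 Flvcr-deleted class D cells had 24.2, 0.974, 0, 0 and 0 RPKM, against a lowest, median and highest value of 0, 15.9 and 124 RPKM in the 13 wild-type class D cells. In each class the ranges overlapped and the Flvcr-deleted median was far below the wild-type one. Over classes B to D, 15 of 30 Flvcr-deleted cells had Bnip3l detected, a share of 50% with a 95% interval of 31.3% to 68.7%. In wild-type cells it was 39 of 42, a share of 92.9% with an interval of 80.5% to 98.5%. The differences were -2.31, -1.83 and -2.65 in classes B, C and D, with a mean of -2.26, or -1.19 relative to the median gene. The median gene past the filter was detected in 36.7% of these Flvcr-deleted cells and in 59.5% of these wild-type cells.

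The mouse annotation GENCODE M21 names a processed pseudogene of Bnip3l, and how reads with several matches were counted is not known here, so the level of Bnip3l is uncertain to that extent. At the median estimated depth of classes B to D, 1 RPKM of Bnip3l was worth about 11.5 reads in Flvcr-deleted and 13.2 reads in wild-type cells. A value of 0 in these groups means that no read was counted, which does not show that the transcript was absent.

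Gabarapl2, an LC3 and GABARAP family gene also known as GATE-16, was split among Flvcr-deleted cells. Class B Flvcr-deleted cells had a lowest, median and highest value of 0, 45.5 and 447 RPKM, against 2.45, 94.6 and 328 RPKM in wild-type cells. Class C Flvcr-deleted cells had 0, 52.2 and 476 RPKM, against 0, 194 and 510 RPKM in wild-type cells. The 5 class D Flvcr-deleted cells had 214, 49.7, 14.8, 0 and 0 RPKM, against a lowest, median and highest value of 3.84, 93.2 and 304 RPKM in wild-type class D cells. The highest values of the groups were of like size, but the transcript was detected in a smaller share of Flvcr-deleted cells: it was found in 21 of 30, with an interval of 50.6% to 85.3%. Among wild-type cells 40 of 42 had it, with an interval of 83.8% to 99.4%. Its differences were -1.17, -1.86 and -2.37 in classes B, C and D, with a mean of -1.80.

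Gabarap, the namesake of its subfamily, did not share this. Class B Flvcr-deleted cells had a lowest, median and highest value of 0.247, 72.1 and 356 RPKM, against 1.92, 51.7 and 158 RPKM in wild-type cells. Class C Flvcr-deleted cells had 1.52, 78.8 and 175 RPKM, against 0.716, 40.6 and 248 RPKM in wild-type cells. The 5 class D Flvcr-deleted cells had 155.5, 69.1, 57.9, 34.8 and 11.95 RPKM, against a lowest, median and highest value of 0, 52.7 and 187 RPKM in wild-type cells. The groups overlapped throughout, and the Flvcr-deleted median was the higher of the pair in each of these 3 classes. Detection of Gabarap was near complete, with 29 of 30 Flvcr-deleted cells and, on the wild-type side, 40 of 42. Its mean difference was 0.32, not called, and lay 1.4 above the median gene. It was above the median gene in all 15 alternative settings (0.27 to 2.16), although its sign turned to -0.49 when every cell was scaled to 1 sum of RPKM and to -0.33 when class A was included. It was 0.18 with class A less its 9 Flvcr-deleted cells of suffix d, described with class A, and it was called higher at 1.39 under quantile normalization.

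Map1lc3b, the LC3 gene with the highest level, varied with the class. Class B Flvcr-deleted cells had a lowest, median and highest value of 0, 102 and 321 RPKM, against 31.7, 194 and 968 RPKM in wild-type cells. Class C Flvcr-deleted cells had 25.1, 147 and 754 RPKM, against 11.6, 117 and 590 RPKM in wild-type cells. The 5 class D Flvcr-deleted cells had 311, 247, 149.9, 79.2 and 9.21 RPKM, against a lowest, median and highest value of 66, 189 and 674 RPKM in wild-type cells. The difference was -2.23 in class B, 0.51 in class C and -1.0 in class D, with a mean of -0.91, not called and 0.17 above the median gene. It was called lower in 3 of 15 alternative settings, at -1.14 with every cell weighted alike, -1.66 when every cell was scaled to 1 sum and -1.62 without class C. Relative to the median gene it ranged from -1.75 to 0.75 over the 15. Map1lc3b was not detected in 2 of 16 Flvcr-deleted class B cells, whereas all 10 wild-type ones had it.

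In class B, 4 Flvcr-deleted cells stood apart, with globin genes at 0.320% to 2.71% of their summed RPKM and more than 2000 detected genes each. In these 4 cells Gabarap was at 113, 72.5, 63.3 and 70.6 RPKM while Bnip3l was at 0, 0, 3.8 and 0 RPKM. Without them the Flvcr-deleted minus wild-type difference was -2.04 for Bnip3l, 0.27 for Gabarap, -1.84 for Gabarapl2 and -1.01 for Map1lc3b. The same 2 genes were called lower as with them.

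The number of detected genes moved with the groups. Among cells with 1000 to 2000 detected genes, which were 4 Flvcr-deleted and 2 wild-type cells of class B, 4 and 8 of class C, and 4 and 8 of class D, the median gene's difference was -0.09. There the Bnip3l difference was -2.11, the Gabarapl2 difference -2.94 and the Gabarap difference 0.17. Map1lc3b was at -1.84 but not called. These values rest on 2 wild-type class B cells. In other settings the Bnip3l call was lost under quantile normalization, at -0.87 or -0.38 relative to the median gene, and with a pseudocount of 10, at -0.94. The Gabarapl2 call was lost with a pseudocount of 10, also at -0.94, and at -1.14 with class A less its suffix d cells.

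**Figure D2:**
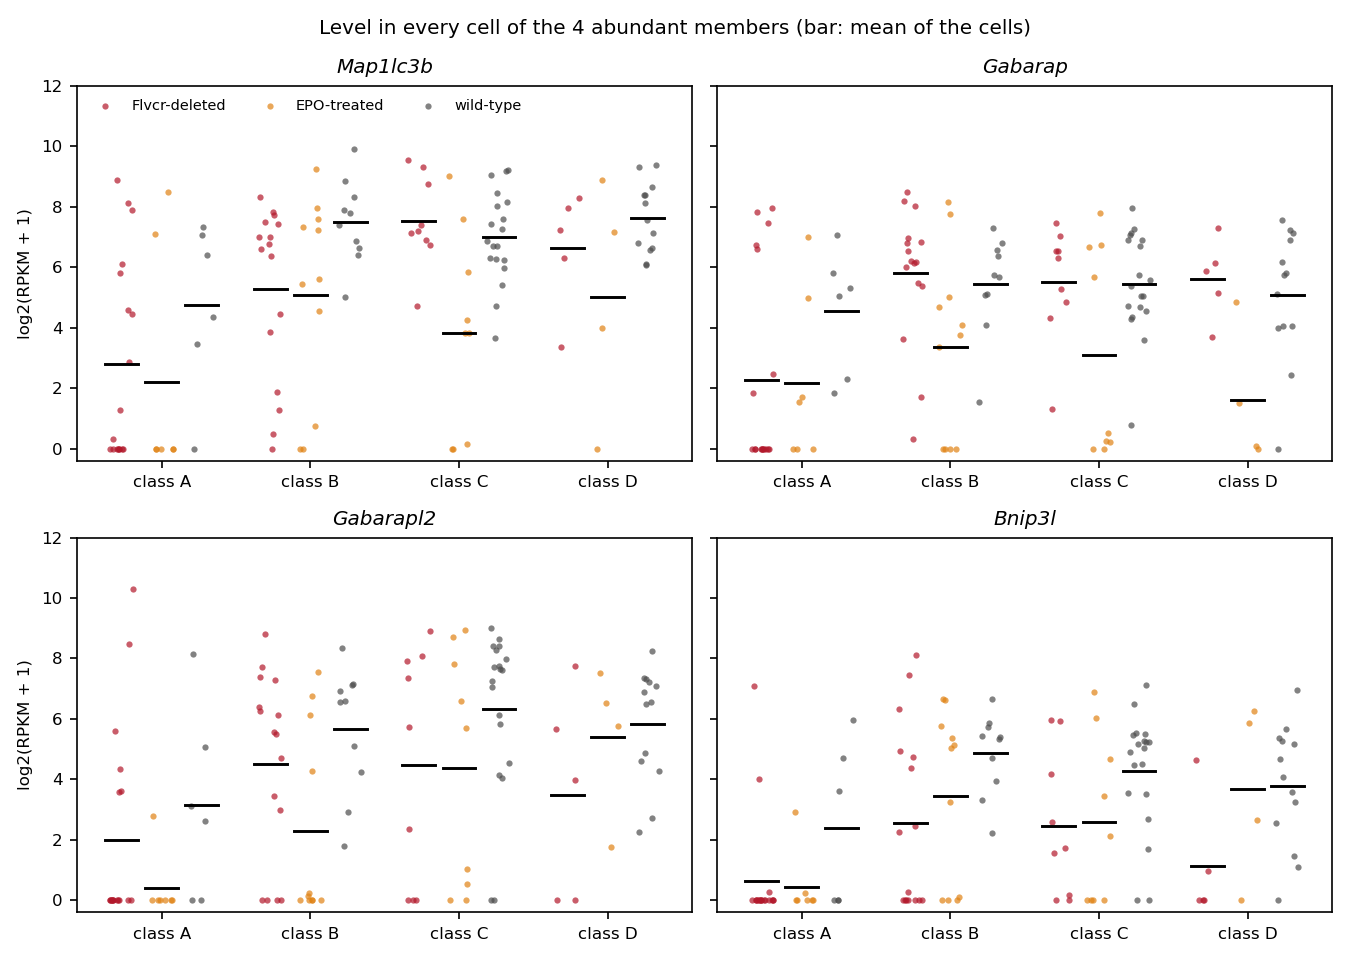
Level of the 4 abundant genes in every cell, as log2(RPKM + 1), by class letter and group, with a bar at the mean of the cells. In classes B to D, Gabarap points of Flvcr-deleted and wild-type cells lie at like heights while EPO-treated cells are divided between 0 and high values, and Bnip3l has many Flvcr-deleted cells at 0.

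EPO-treated cells show how the same genes stood in wild-type mice under hormonal stimulation. All 4 genes past the filter were lower in EPO-treated than in wild-type cells, with a median difference of -2.29 against -0.99 for all genes past the filter. Of all genes past it, 42.0% were called lower and 0.512% higher. The genes that were furthest below the median gene were Map1lc3b and Gabarap, while Bnip3l, at -1.07, was 0.08 from it. The deposited values of EPO-treated cells were rounded to 2 decimals and those of the other groups were not, so they may have been processed apart, and any effect of that cannot be told apart from the group.

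Gabarap was not detected in many EPO-treated cells. Its lowest, median and highest values were 0, 12.6 and 288 RPKM in EPO-treated class B cells, against 1.92, 51.7 and 158 RPKM in wild-type class B cells. In class C they were 0, 0.44 and 222 RPKM in EPO-treated cells, against 0.716, 40.6 and 248 RPKM in wild-type cells. The 4 EPO-treated class D cells had 28.2, 1.88, 0.06 and 0 RPKM, and all 4 were below the wild-type class D median of 52.7 RPKM. It reached 1 RPKM in 13 of 24 EPO-treated cells, with an interval of 32.8% to 74.4%, whereas 40 of 42 wild-type cells reached it. The median gene past the filter was detected in 41.7% of these EPO-treated cells and in 59.5% of these wild-type cells. The Gabarap differences were -2.08, -2.36 and -3.48 in classes B, C and D, with a mean of -2.64, at percentile 4.84 of the genes past the filter.

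Map1lc3b was lower in this comparison too. EPO-treated class B cells had a lowest, median and highest value of 0, 48.2 and 615 RPKM, and class C cells 0, 13.3 and 524 RPKM. The 4 class D cells had 472, 142, 15.0 and 0 RPKM. Each class thus held EPO-treated cells with Map1lc3b at 0 and others within the wild-type range. Its transcript was found in 17 of 24 EPO-treated cells, with an interval of 48.9% to 87.4%, whereas 42 of 42 wild-type cells had it, with a lower bound of 91.6%. Its differences were -2.44, -3.17 and -2.62, with a mean of -2.75. Gabarap and Map1lc3b were called lower in EPO-treated than in wild-type cells in all 15 alternative settings, with differences of -3.90 to -1.28 and -3.60 to -1.75.

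Gabarapl2 and Bnip3l were less even across classes. Gabarapl2 had a lowest, median and highest value of 0, 0.11 and 188 RPKM in EPO-treated class B cells and of 0, 51.4 and 494 RPKM in class C cells. The 4 EPO-treated class D cells had 181, 90.6, 53.8 and 2.42 RPKM, of which 3 lay within the wild-type class D range of 3.84 to 304 RPKM. Its difference was accordingly -3.40 in class B, -1.97 in class C and -0.45 in class D. Bnip3l had 0, 32.1 and 100.5 RPKM in class B and 0, 3.37 and 117 RPKM in class C, and the 4 class D cells had 76.3, 56.9, 5.27 and 0 RPKM. Its differences were -1.41, -1.71 and -0.09, with a mean of -1.07, and among cells with 1000 to 2000 detected genes the mean was 0.03, the opposite sign. That value rests on 2 EPO-treated class D cells, those at 76.3 and 56.9 RPKM, and on 2 wild-type class B cells.

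Setting Flvcr-deleted beside EPO-treated cells compares groups whose numbers of detected genes were closer, and the median gene's difference was -0.12. Gabarap and Map1lc3b were higher in Flvcr-deleted cells, by 2.96 and 1.84, Bnip3l was lower at -1.19, and Gabarapl2 was not called at 0.14. Of all genes past the filter, 7.76% were called higher and 8.86% lower, against 2 of 4 and 1 of 4 here, with a median of 0.99 over the 4 genes. The difference of Gabarap was 2.46 in class B, 2.42 in class C and 4.01 in class D, and it was called higher in all 16 alternative settings (1.52 to 4.29). The Map1lc3b difference was 0.21, 3.69 and 1.62 in these classes and was called in 13 of the 16. The Bnip3l call was held in 6 of the 16 and rests on class D, where 1 of 5 Flvcr-deleted and 3 of 4 EPO-treated cells had it detected. Without class D its difference was -0.50.

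**Figure D3:**
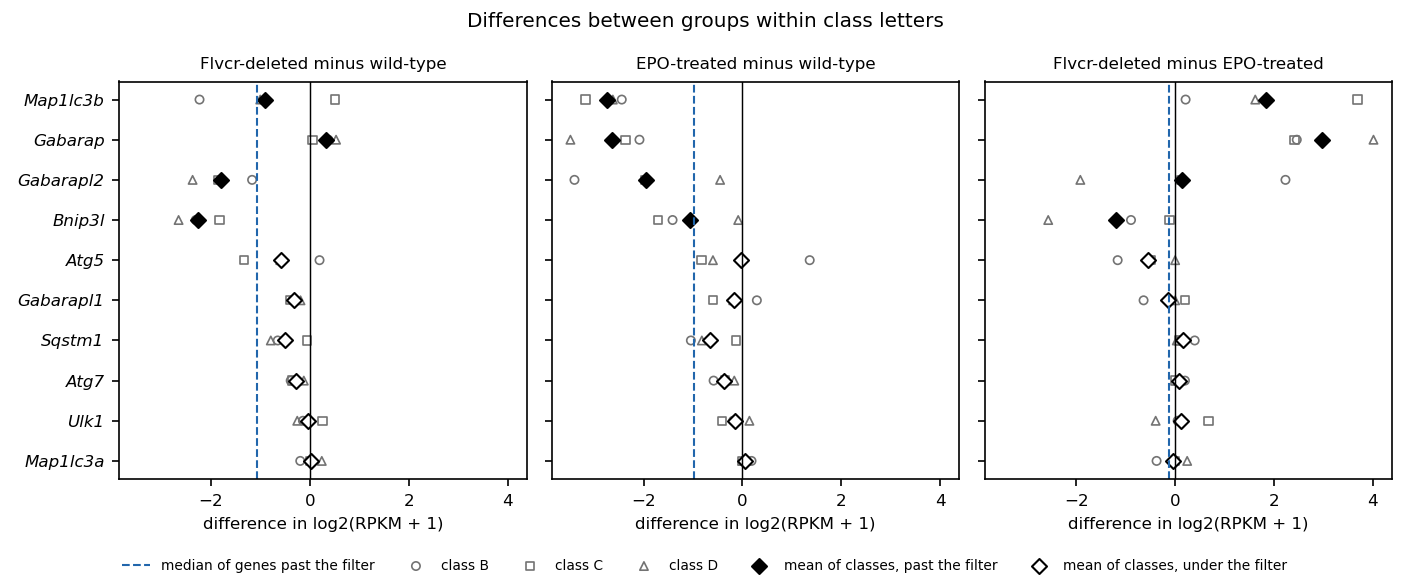
Differences of mean log2(RPKM + 1) for the 10 genes in classes B, C and D (open grey symbols) and their mean (diamonds, filled for genes past the filter), with the median of the 2540 genes past the filter as a dashed line. Gabarap stands at 0.32 in Flvcr-deleted minus wild-type, at -2.64 in EPO-treated minus wild-type and at 2.96 in Flvcr-deleted minus EPO-treated cells.

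Over classes B to D the order of mean log2(RPKM + 1) differed between the genes. Gabarap was at 5.69 ± 1.95 in the 30 Flvcr-deleted cells, 2.97 ± 3.05 in the 24 EPO-treated cells and 5.34 ± 1.81 in the 42 wild-type cells (mean ± SD over cells). Map1lc3b was at 6.18 ± 2.54, 4.60 ± 3.33 and 7.33 ± 1.37 in the same groups. Gabarapl2 was at 4.33 ± 3.28, 3.58 ± 3.49 and 6.03 ± 2.30, and Bnip3l at 2.29 ± 2.66, 3.16 ± 2.76 and 4.27 ± 1.86. Neighbouring groups in the order of a gene lay within 1 SD of each other, apart from the step between EPO-treated and wild-type Gabarap, which exceeded the wild-type SD. The SDs of Map1lc3b, Gabarapl2 and Bnip3l were larger in the Flvcr-deleted and EPO-treated cells than in wild-type cells, as were the shares of cells without detection.

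All 4 abundant genes were detected together in 12 of 30 Flvcr-deleted cells (40%), in 9 of 24 EPO-treated cells (37.5%), and among wild-type cells in 36 of 42 (85.7%). None of the 10 genes was detected in 3 EPO-treated class B cells, while each Flvcr-deleted and wild-type cell of classes B to D had at least 2. In EPO-treated cells the levels of the 4 genes tended to go together: Spearman's rho between pairs of them was 0.31 to 0.53 over 24 cells, and on the larger EPO chip their rho with the number of detected genes was 0.22 to 0.61 over 21 cells. In Flvcr-deleted cells rho between pairs was -0.04 to 0.19 over 30 cells, and in wild-type cells -0.22 to 0.10 over 42. These values describe cells that share a chip and differ in depth.

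Because RPKM is scaled to length, the make-up of the LC3 and GABARAP family can be read within a cell, where all transcripts share 1 depth. Gabarap took a mean share of 35.9 ± 30.4% of the summed family RPKM in 30 Flvcr-deleted cells, 17.9 ± 27.6% in the 20 EPO-treated cells with a family sum of at least 1 RPKM and 18.7 ± 16.6% in 42 wild-type cells of classes B to D. It was the highest of the 5 family transcripts in 9 of 30 Flvcr-deleted cells, in 2 of 20 EPO-treated cells and, among wild-type cells, in 1 of 42. By class, it led in 6 of 16, 1 of 9 and 2 of 5 Flvcr-deleted cells of classes B, C and D, and its mean share there was 44.1%, 23.5% and 32.3%, against 18.4%, 20.5% and 16.4% in wild-type cells. The larger mean share was thus in classes B and D. Median shares were closer in class B, at 30.6% in Flvcr-deleted and 22.1% in wild-type cells. They were 13.3% and 11.4% in class C, and 31.0% and 10.6% in class D. In Flvcr-deleted class B cells the share ran from 0.141% to 100%.

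Map1lc3b took 40.9 ± 29.4% in Flvcr-deleted, 44.8 ± 36.5% in EPO-treated and 50.2 ± 24.1% in wild-type cells, and it was the leading family transcript in 13 of 30, 10 of 20 and 25 of 42 cells. Gabarapl2 took 22.4 ± 24.6%, 36.1 ± 39.4% and 30.7 ± 24.3%, and it led in 8 of 30, 8 of 20 and 16 of 42 cells. Gabarapl1 and Map1lc3a led in none of these cells, and their mean shares did not exceed 2.66% in any group and class from B to D. The family's summed level had medians of 309, 208 and 372 RPKM in Flvcr-deleted, EPO-treated and wild-type cells.

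**Figure D4:**
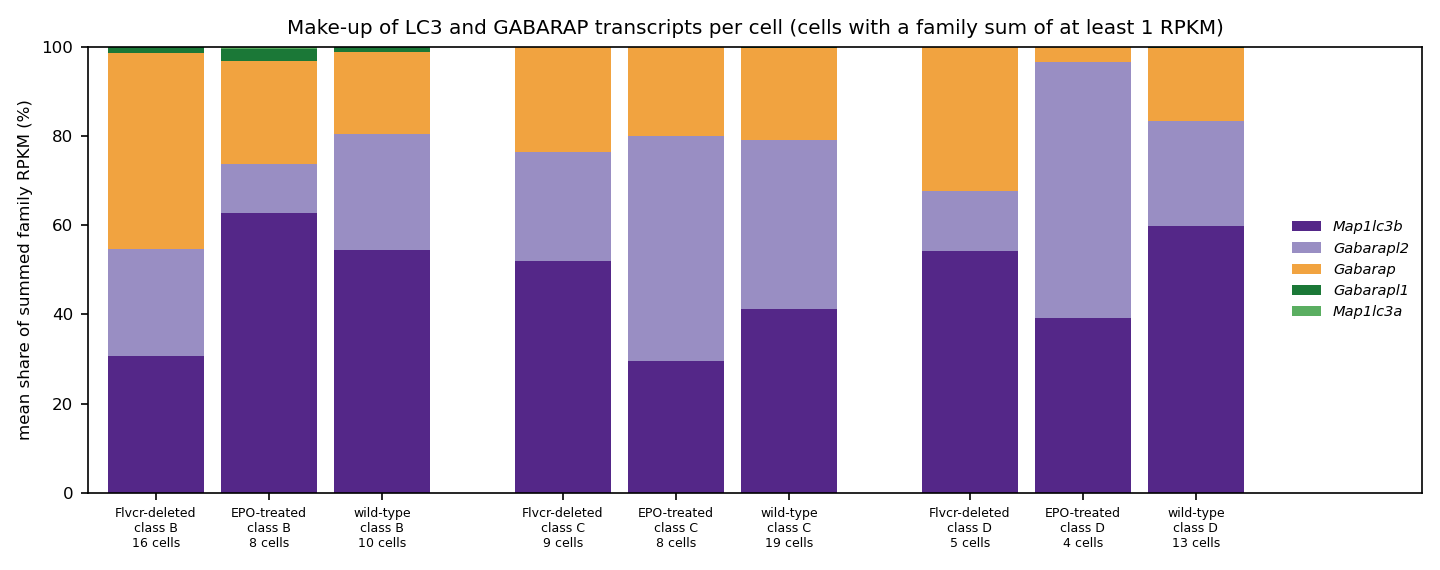
Mean share of each LC3 and GABARAP gene in the summed family RPKM of a cell (y axis, percent), by group and class, over the cells with a family sum of at least 1 RPKM. The Gabarap segment is 44.1% in Flvcr-deleted and 18.4% in wild-type class B cells, and 3.35% in the 4 EPO-treated class D cells.

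The rare genes were described by detection and highest value, since their means rest on few cells. In classes B to D, Sqstm1, the p62 receptor, was found in 4 of 30 Flvcr-deleted cells, with an interval of 3.76% to 30.7%. It was found in 1 of 24 EPO-treated cells (0.105% to 21.1%), and wild-type cells had it in 13 of 42 (17.6% to 47.1%). The highest Sqstm1 value was 34.9 RPKM in Flvcr-deleted, 155 in EPO-treated and 62.2 in wild-type cells. Atg5, which forms part of the conjugation complex, was detected in 3, 5 and 10 cells of these groups, with highest values of 35.7, 119 and 91.5 RPKM. Atg7, the E1-like enzyme that activates the family, was detected in 2, 1 and 6 cells. For each of these 3 genes the intervals of the groups overlapped.

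Ulk1, the initiating kinase, was detected in 1 Flvcr-deleted, 1 EPO-treated and 4 wild-type cells of classes B to D, at up to 66.4, 3.68 and 41.3 RPKM. Gabarapl1 was detected in 4 of 30, 3 of 24 and 8 of 42 cells, at up to 78.8, 65.3 and 17.7 RPKM; the Flvcr-deleted cell at 78.8 RPKM was 1 of the 4 class B cells low in globin. Map1lc3a, represented by the transcript NR_046364, was detected in 1 cell of each group. The intervals of these shares overlapped for Ulk1, Gabarapl1 and Map1lc3a, and they too cover counting error over cells only.

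The class letters allowed cells with more Ter119 to be compared with cells with less in each group. Detected genes and the globin share of summed RPKM also moved with the letter. Their medians in wild-type cells were 3033.5 and 45.8% in class B, and 1891 and 84.6% in class D. In EPO-treated cells they were 1771 and 45.8%, then 1087.5 and 92.6%. In Flvcr-deleted cells they were 1235 and 79.9%, then 1214 and 90.7%. In wild-type cells Bnip3l was lower in class D than in class B by a difference of -1.08, while Gabarap, Gabarapl2 and Map1lc3b were at -0.34, 0.17 and 0.12 and the median gene at -0.90. A gene was called here where class D minus class B had a size of at least 1 and class C minus class B had the same sign. By that rule 1 of 4 genes was lower and 0 higher, against 43.3% and 4.65% of all genes past the filter, and the 4 genes had a median of -0.11. The median wild-type cell had 40.4 RPKM of Bnip3l in class B, 32.2 in class C and 15.9 in class D, with overlapping ranges. The Bnip3l call held in 5 of 9 alternative settings, with differences of -1.76 to -0.06.

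In Flvcr-deleted cells Map1lc3b was higher in class D than in class B by 1.35, Bnip3l and Gabarapl2 were lower at -1.43 and -1.03, and Gabarap was at -0.18. Of all genes past the filter, 8.98% were called higher and 27.0% lower, with a median of -0.43. In EPO-treated cells Gabarapl2 was higher in class D by 3.11 and Gabarap lower at -1.73, with Bnip3l at 0.24 and Map1lc3b at -0.06, while 6.61% of all genes were called higher and 53.7% lower, with a median of -1.36. Class D held 5 Flvcr-deleted and 4 EPO-treated cells, so each of these values turns on few cells. The EPO-treated Gabarap value had the opposite sign among cells with 1000 to 2000 detected genes (0.89) and under quantile normalization (0.77). The first of these rests on 2 class D cells, at 28.2 and 1.88 RPKM. Gabarapl2 was called higher in all 9 alternative settings in EPO-treated cells (1.52 to 5.62).

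Class A is given by its levels alone. Map1lc3b was detected in 9 of 18 Flvcr-deleted class A cells, 2 of 7 EPO-treated ones and 5 of 6 wild-type ones, Gabarap in 7, 4 and 6, Gabarapl2 in 6, 1 and 4, and Bnip3l in 2, 1 and 3. The labels divide the Flvcr-deleted class A cells into 9 with a suffix a and 9 with a suffix d, and these stood apart. The suffix d cells had 169 to 864 detected genes, the suffix a cells 796 to 3069. Map1lc3b was detected in 1 of 9 suffix d and 8 of 9 suffix a cells, Gabarap in 1 and 6, Gabarapl2 in 0 and 6, and Bnip3l in 0 and 2. The 6 wild-type class A cells had 1 to 6 of the 12 erythroid markers, and Gabarap was detected in all of them and Map1lc3b in 5. Flvcr-deleted class A cells had 2 to 10 of these markers. The median number of detected genes in class A was 830 in Flvcr-deleted, 1464 in EPO-treated and 2878 in wild-type cells.

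Other genes of the pathway were taken from 7 lists with 79 genes, of which 27 passed the filter. In Flvcr-deleted against wild-type cells 19 of the 27 were called lower and none higher, while 48.3% of all genes past the filter were called lower and 3.74% higher. Their median was -1.74, that of all genes past the filter -1.08. The 4 members reached the filter in each group taken alone, but 2 of the 27, the receptors Optn and Nbr1, reached it in wild-type cells only, so that they had to be lower in the other groups. Of the other 25 genes 17 were called lower. Of these 17, Atg4a, Ctsd, Prkag1 and Rheb had means below the filter in Flvcr-deleted cells (0.79, 0.98, 0.64 and 0.45) and passed it through the other groups. The filter thus favoured a lower call for them. Among cargo receptors and mitophagy genes, those of the 17 called lower were Tax1bp1, a receptor for ubiquitinated cargo (-2.60), Ncoa4, the receptor for ferritin turnover (-1.44), and Phb2, an inner membrane prohibitin (-1.25). In the conjugation list 3 of 3 were lower, led by the proteases Atg4b (-2.54) and Atg4a (-2.37), which process LC3 and GABARAP proteins. Among lysosomal genes 3 of 4 were lower, with the largest differences for the cathepsins Ctsb (-3.89) and Ctsd (-3.59). Among regulators Prkag1, a subunit of AMP-activated kinase (-2.82), and Rheb, the activator of mTORC1 (-1.54), were called lower. All 3 regulators past the filter had Flvcr-deleted means below it, so no result is drawn from their count. Bnip3l at -2.26 and Gabarapl2 at -1.80 lay among the values of these listed genes, whereas Gabarap was at 0.32, against 0.19 for Lamp1, a lysosomal membrane protein gene and the highest of the 27.

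Initiation genes Wipi2 (-0.99) and Vmp1 (-0.56), and the mitochondrial fission genes Fis1 (-0.86) and Mff (-0.02), were not called. Of 8 genes of mitochondrial proteins past the filter 6 were lower in Flvcr-deleted than in wild-type cells, against 48.3% of all genes past it. Their median was -2.17, that of all genes past the filter -1.08. The largest differences were those of Slc25a5, the ADP/ATP carrier (-3.11), and Vdac2, a channel of the outer membrane (-2.57). In EPO-treated against wild-type cells 19 of the 27 listed genes were lower and none higher, against 42.0% and 0.512% of all genes past the filter. Their median was -1.59, that of all genes past the filter -0.99. In Flvcr-deleted against EPO-treated cells 2 were lower and 0 higher, against 8.86% and 7.76%.

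From class B to class D of wild-type cells, the lists diverged from each other. Of the 8 mitochondrial protein genes 7 were called lower in class D than in class B, against 43.3% of all genes past the filter, with a median of -2.14 against -0.90 for all genes past the filter, led by Vdac2 (-3.65) and Slc25a5 (-3.44). Phb2, a mitophagy receptor, was lower too (-2.93). Against that, Ncoa4 (1.49) and Atg4a (1.57) were higher. In Flvcr-deleted cells 5 of 8 mitochondrial protein genes were called lower in class D, against 27.0% of all genes, with a median of -1.69; Tomm22, a subunit of the outer membrane import complex, was at 1.62 and Immt at 0.79. In EPO-treated cells 8 of 8 were called lower, against 53.7% of all genes, with a median of -3.14. In wild-type cells the class D minus class B difference of Map1lc3b was -1.19 and called lower among cells with 1000 to 2000 detected genes, where Gabarapl2 was at -0.94 and the median gene at 0.0088. These values rest on 2 wild-type class B cells, with Map1lc3b at 319 and 968 RPKM. When every cell was scaled to 1 sum of RPKM, Gabarap was called lower at -1.10, with the median gene at -1.38.

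**Figure D5:**
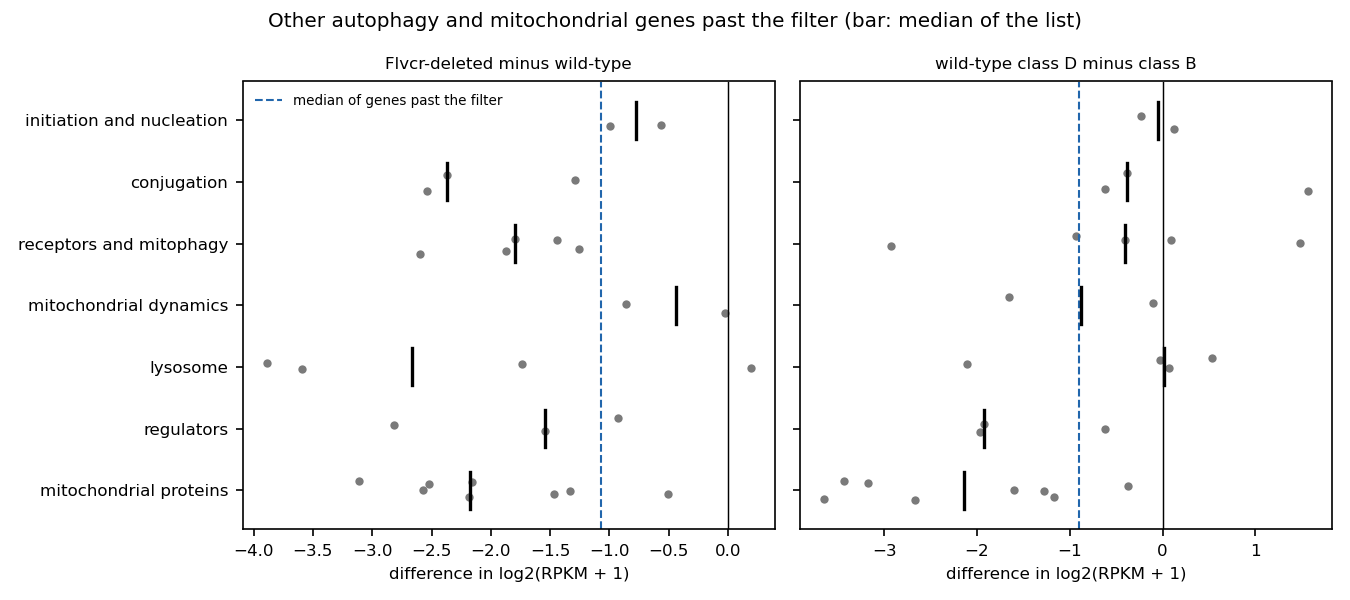
Differences of mean log2(RPKM + 1) for the 27 listed genes past the filter, as points, with the median of each list as a bar and the median of all 2540 genes past the filter as a dashed line, for Flvcr-deleted minus wild-type cells and for class D minus class B of wild-type cells. The cathepsins Ctsb and Ctsd lie farthest to the left in the Flvcr-deleted comparison, and the mitochondrial protein genes Vdac2 and Slc25a5 in the comparison of classes.

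The genes with patterns most like those of the 3 abundant family genes were found by Pearson's r over the 12 means of group and class, which share differences in depth and the unlike class A cells. For Map1lc3b they were Tmem256 (0.946), Creg1 (0.945), Vmp1 (0.939), Tuba4a (0.931) and H3f3a (0.924). For Gabarap they were Atp5l (0.915), Uqcrh (0.890), Cox7a2 (0.885), Fam96b (0.884) and Tceb2 (0.881). For Gabarapl2 they were Snap23, Uba7, March8, Klf3 and Napa, at 0.908 to 0.917. No other abundant member was among the 5 nearest of these 3 genes. Among the members, r was 0.811 for Gabarapl2 and Bnip3l, 0.790 for Gabarap and Map1lc3b, 0.776 for Gabarapl2 and Map1lc3b, 0.672 for Map1lc3b and Bnip3l, 0.510 for Gabarap and Gabarapl2, and 0.338 for Gabarap and Bnip3l.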

How the data were processed

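Per the labels' protocols, single marrow cells were isolated on a Fluidigm C1 chip and imaged for Ter119, SMART-Seq was used to amplify their cDNA, and libraries were prepared with a Nextera XT kit. The deposited values were RPKM, made by the authors, with 1 row for each RefSeq transcript (34898 rows) and 1 column for each of 127 cells. TopHat2 2.0.9 and mm9 are named in the submitters' processing notes. The counting tool and the handling of reads with several matches were not given there. The columns of EPO-treated cells had at most 2 decimals, and 4 columns that belong to no sample were not used here.

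Each symbol was represented by its row with the highest mean, and log2(RPKM + 1) was used, which understates the change of genes near 0. Groups were taken from the labels. Group differences were averaged over class letters B, C and D, and class D minus class B was taken within groups, with a size of at least 1 for a call. No test was made, since each group was 1 sample. The members, the 7 further lists, the markers, the use of classes B to D and the alternatives were chosen with earlier results of these data known. The named genes were all 10 members. From each further list came the 2 genes past the filter with the largest Flvcr-deleted minus wild-type difference and the 2 with the largest wild-type class D minus class B difference. For the 3 members with the highest means came the 5 genes with the most similar pattern. Lamp1, Nbr1, Tomm22 and Immt are named after their values were seen.

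Median estimated depth over classes B to D was 3.54 M reads for Flvcr-deleted and 4.08 M for wild-type cells, from the smallest step between values, with GENCODE M21 transcript lengths for 97.6% of rows. They are approximate, and rounding hides the depth of EPO-treated cells. Promoter windows came from RefSeq tables of GRCm38.p6, another build than mm9, and no values were joined to them by position. Python 3.11.15, numpy 2.4.6, pandas 2.3.3, scipy 1.17.1 and matplotlib 3.10.9 were used. The computation of differences and calls was run on values drawn from wild-type cells, with known differences added. That run checks the computation and not the effect of the groups' unlike numbers of detected genes, which it did not hold.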

Additional observations from a re-analysis of the deposited data

How the results depend on the processing

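Of the counts and medians over members recomputed under the alternative settings, 163 were labelled the same as in the main setting, 40 weaker and 16 stronger. A count was labelled weaker or stronger where it fell or rose beyond a fixed ratio to the main count. A median was so labelled where it fell below or reached a size of 1. The cause was not tested where a construction does not show it. Of the differences of single members, 237 kept their call or stayed without one, 42 lost their call, 10 gained one and 3 called ones changed sign. A change of sign was not counted where the difference was not called in the main setting. Classes A to D without the suffix d cells, a setting chosen after seeing the data, gave 1 member called lower and a median of -0.82 in Flvcr-deleted minus wild-type cells, and 0 lower and a median of 1.595 in Flvcr-deleted minus EPO-treated cells. Of all genes past the filter, 37% and 3.86% were called lower there, against 48.3% and 8.86% in the main setting. In Flvcr-deleted minus wild-type cells, a pseudocount of 10 gave 0 members called lower and a median of -0.79, quantile normalization 1 lower, 1 higher and a median of -0.51, and scaling without globins a median of -0.90. The median of all genes past the filter was at -1.08, and at -1.32 with all cells scaled to 1 sum, -0.90 with scaling without globins and -0.49 under quantile normalization. Without the filter, which lets all 10 members in, the median was -0.40, and in EPO-treated minus wild-type cells -0.52. In that comparison 2 members were called lower under scaling without globins, under quantile normalization and among cells with 1000 to 2000 detected genes, where Bnip3l was at 0.025. Of all genes past the filter, 34.6%, 22% and 14% were called lower in these settings, against 42.0% in the main one. In Flvcr-deleted minus EPO-treated cells, 0 members were called lower with classes A to D (median 1.01), with every cell weighted alike (1.16), with a pseudocount of 0.1 (1.30) or 10, with scaling without globins (1.13), with quantile normalization, without cells under 10% globin, without class D (1.56) and without the smaller EPO chip. There 1 was called higher with all cells scaled to 1 sum, without cells under 10% globin and without class C.

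For class D minus class B of Flvcr-deleted cells, 1 member was called lower with a pseudocount of 0.1, among cells with 1000 to 2000 detected genes and without cells under 10% globin. Of all genes past the filter, 34.7%, 17.3% and 10.7% were called lower in these settings, against 27.0% in the main one. The count of lower members was 0 with a pseudocount of 10, scaling without globins or quantile normalization. The count of higher members was 0 with a pseudocount of 10 and with scaling to 1 sum (median -1.10), and 2 among cells with 1000 to 2000 detected genes. For EPO-treated cells, the lower count was 0 with a pseudocount of 10, scaling without globins (median 1.10) or quantile normalization (1.205, Gabarap 0.77). There 31.1%, 43.1% and 36.1% of all genes were called lower, against 53.7% in the main setting. The lower count was also 0 among cells with 1000 to 2000 detected genes, which held 2 class D cells. In that setting 2 were higher, the median was 1.97 and Gabarap was at 0.89. Of all genes, 30.8% were called lower and 17.1% higher there. It was 2 with scaling to 1 sum and 3 without the filter. For wild-type cells it was 0 with a pseudocount of 10, scaling without globins or quantile normalization, and 2 with scaling to 1 sum.

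Detection shares moved by more than their interval in 6 of 60 cases, all of them from a threshold of 5 RPKM or of any value above 0. No paired analysis was possible because the cell numbers of the groups name no shared animal and no test was made. With 4 to 19 cells in a group and class, 1 chip or pair of chips per group and unknown depth in EPO-treated cells, the values describe these cells alone.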
